A study of Mus musculus with 14 samples.

Results

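Spinal cord injury in control mice was followed by comparing 4 injured cords, taken 7 days after injury, with 3 uninjured cords, 7 of the 14 libraries of the series. The members were chosen by their labels: control SCI (spinal cord injury) replicates 1 to 4 and control uninjured replicates 1 to 3; SCI and uninjured cords are those of controls unless said otherwise. The other 7 libraries come from mice labelled AstroCSF1KO, with Csf1 deleted in astrocytes, 4 with SCI and 3 uninjured, and are used here only beside the controls. Each library holds poly(A) RNA of spinal cord tissue, described as from the lesion site or the matching level of an uninjured cord. Whether the levels did match was not tested. The labels give no strain, age, sex, type of injury or cord level, and do not say whether controls carry a floxed allele, a Cre driver or an agent that induces it. They also do not say whether replicates are separate animals, so p-values measure the spread between these libraries. Of 56748 genes in the table, the 15155 with at least 1 FPKM (fragments per kilobase of gene, scaled by sequencing depth) in at least 3 of the 14 libraries were tested.

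A crushed or cut cord loses neurons and oligodendrocytes at the lesion, opens its blood vessels and lets blood-borne leukocytes in. By about a week resident microglia and invading macrophages fill the lesion and clear debris, astrocytes around it become reactive, and fibroblasts lay down matrix. Bulk tissue mixes all of these cells, so fewer cells of a type and less RNA per cell cannot be told apart in any value below.

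The 7 libraries are of 2 kinds. Control SCI replicates 1 and 4 and control uninjured replicate 1 stand apart from the other 4: genes with exactly 1 read were 1.45 to 2.06% of those detected in them and 8.44 to 11.6% in the other 4, and mitochondrially encoded genes held 6.73 to 13.9% and 3.59 to 5.06% of reads. Across genes kept, log2(FPKM + 1) correlated at 0.909 to 0.928 among these 3 libraries, at 0.915 to 0.984 among the other 4 and at 0.714 to 0.864 between the 2 kinds. Kind and sex cross with injury. Ddx3y, a Y-linked gene, stood at 23.6, 13.8, 11.8 and 0 FPKM in SCI cords and at 34.3, 0 and 0 FPKM in uninjured cords, so control SCI replicate 4 and control uninjured replicates 2 and 3 lack it. Without the 3 libraries that stand apart both injured cords have Ddx3y and both uninjured ones lack it, and there sex and injury cannot be told apart. Csf1, deleted in astrocytes of the other genotype, stood at 7.95, 17.6, 18.3 and 10.4 FPKM in SCI cords, against 4.24, 11.9 and 12.2 FPKM in uninjured cords, overlapping between the groups (log2 change 0.52 ± 0.44 SE, limma adjusted p = 0.958). Within each kind of library Csf1 was higher in injured cords. Without the 3 libraries its change was 0.54 ± 0.08 (SE, limma adjusted p = 0.0171). With library kind as a term it was 0.70 (adjusted p = 0.0199), and with the replicate number as a block 0.61 (adjusted p = 0.0535).

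More genes were called higher than lower after injury in the fit of all 7 libraries: 156 genes were called higher and 2 lower at an adjusted p under 0.05 (limma), 1.03% and 0.0132% of those tested. Of the 156, 87 averaged under 1 FPKM in uninjured cords, against 1643 of all 15155 tested, and 151 are protein coding, against 13098 of all tested. Genes that low in uninjured cords pass the filter in part through injured ones, so the count of 87 is a description. Their log2 changes ran between 1.07 and 6.11 with a median of 1.98. Where library kind or pairing by replicate number entered the fit, or the 3 libraries were left out, more genes were called in both directions. With library kind as a term 1270 genes were called higher and 855 lower (8.38% and 5.64%). With the replicate number as a block 1030 were called (6.80%), 807 higher and 223 lower (5.32% and 1.47%). Number 1 joins an injured and an uninjured library that stand apart, so the block also separates the kinds of library. Control SCI replicate 4 has no partner, so it adds nothing to the change estimated with the block, here and below. Without the 3 libraries 1850 were called higher and 1774 lower (12.2% and 11.7%). The 158 genes called with all 7 libraries were called in the same direction in each of these 3 fits, and 66 of them with sex as a term in place of kind. These fits reuse the libraries that chose the 158, so they are not separate support. Leaving out 1 library lowered the count of 158 by more than 1.5 times for 6 of the 7: to 15 and 17 without control uninjured replicates 2 and 3, 63 without replicate 1, and 98, 60 and 60 without control SCI replicates 1, 2 and 3. Over all genes tested, the injured libraries lay above every uninjured one in 7.79% and below every one in 4.76%, and within both kinds of library at the same time in 18.3% and 19.4%. Across the 15155 genes, the change within the 3 libraries that stand apart and the change in the other 4 had a Pearson r of 0.598, a description across genes, which are not replicates.

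**Figure D1:**
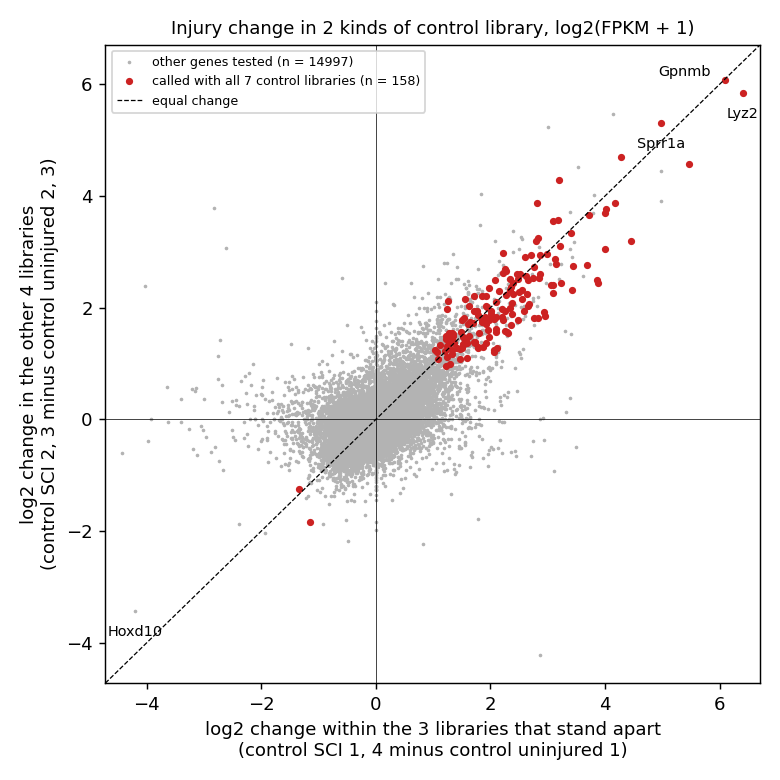
Log2 change with injury of each gene tested on the log2(FPKM + 1) scale, within the 3 libraries that stand apart (x axis; control SCI 1 and 4 minus control uninjured 1) and in the other 4 (y axis; control SCI 2 and 3 minus control uninjured 2 and 3). Grey points are the other genes of the 15155 and red points the 158 called with all 7 libraries. The red points lie along the diagonal, with Lyz2, Gpnmb and Sprr1a at the top right. They were chosen by a fit of these same libraries, which favours genes that change alike in both kinds.

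The largest rises included genes of macrophages, of an injured-neuron program and of scar matrix, and the macrophage genes come first. Gpnmb (ENSMUSG00000029816, chromosome 6, 49013480 to 49047863 of mm39), a transmembrane glycoprotein of lipid-laden macrophages, stood at 87.1, 96.5, 82.5 and 83.7 FPKM in SCI cords, against 0.268, 0.335 and 0.332 FPKM in uninjured cords. Every injured cord was far above every uninjured one, and the 4 injured values lay close together (log2 change 6.07 ± 0.18 SE, adjusted p = 3.73e-05). Lyz2 (ENSMUSG00000069516, chromosome 10, 117113236 to 117118226), which encodes lysozyme of myeloid cells, stood at 784, 530.3, 694 and 944 FPKM in SCI cords, against 9.15, 11.2 and 8.21 FPKM in uninjured cords. It was the largest rise among genes called (6.11 ± 0.26 SE, adjusted p = 2.75e-04), and the groups did not overlap in either kind of library. Cd68, a lysosomal membrane protein of macrophages, stood at 64.7, 96.7, 81.5 and 62.6 FPKM in SCI cords, against 0.462, 3.09 and 2.50 FPKM in uninjured cords, with the lowest level in the uninjured library that stands apart (4.79 ± 0.39 SE, adjusted p = 0.00406). Mpeg1, a pore-forming protein of phagosomes, stood at 94.8, 93.4, 118 and 122 FPKM in SCI cords, against 5.73, 6.56 and 6.98 FPKM in uninjured cords (3.86 ± 0.21 SE). Wfdc17, a secreted protease inhibitor of myeloid cells, had 0 reads in control uninjured replicate 1 and stood at 19.6, 8.30, 10.5 and 22.2 FPKM in SCI cords, against 0, 0.182 and 0.0921 FPKM in uninjured cords (3.79 ± 0.36 SE, adjusted p = 0.00626). Lgals3, which encodes galectin 3, was higher by 3.76 ± 0.54 and Cst7, a cystatin, by 3.29 ± 0.32 (SE).

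**Figure D2:**
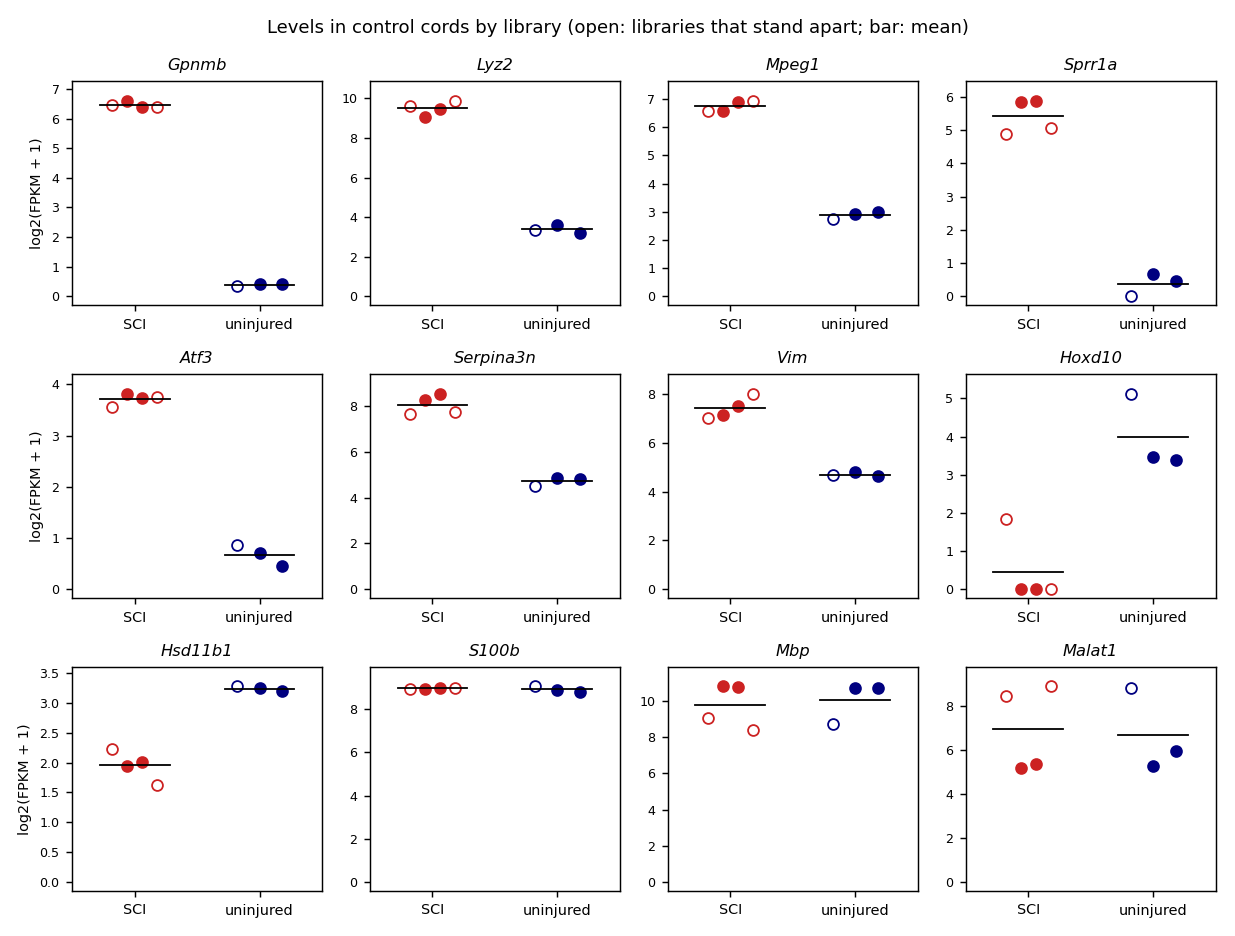
Levels of 12 genes in each control library as log2(FPKM + 1), control SCI (n = 4, left) and control uninjured (n = 3, right) in each panel; open symbols are the 3 libraries that stand apart and the bar is the group mean. Gpnmb, Lyz2, Mpeg1, Sprr1a, Atf3, Serpina3n and Vim are higher and Hoxd10 and Hsd11b1 lower in every injured library, while S100b, Mbp and Malat1 overlap between the groups.

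Of 24 damage-associated microglia genes, a program that microglia turn on near damage, 12 were called higher with all 7 libraries, 21 with the replicate block and 22 without the 3 libraries; the median log2 change was 2.49, against -0.05 over all genes tested. Ch25h, which makes 25-hydroxycholesterol, stood at 5.41 to 11.1 FPKM in SCI cords, against 0.180 to 0.460 FPKM in uninjured cords and rose by 2.71 ± 0.26 (SE, adjusted p = 0.00626). Pan-macrophage genes, shared by microglia and blood-derived macrophages, had a like median. Of 16 pan-macrophage genes 10 were called higher with all 7 libraries, 16 with the replicate block and 16 without the 3 libraries (median 2.75). Adgre1, which encodes the macrophage marker F4/80, stood at 13.3, 13.5, 14.2 and 13.5 FPKM in SCI cords, against 1.15, 1.48 and 1.67 FPKM in uninjured cords, with the injured values within 1 FPKM of each other (2.59 ± 0.18 SE, adjusted p = 0.00229). Genes of surveying microglia had a lower median. Of 17 homeostatic microglia genes 3 were called higher with all 7 libraries, 10 with the replicate block and 13 without the 3 libraries (median 0.86). Those called with all 7 libraries included Fcrls, an Fc receptor-like protein (20.6 to 69.5 FPKM in SCI cords, against 2.06 to 3.95 FPKM in uninjured cords; 3.26 ± 0.50 SE), and Olfml3, a secreted matrix protein (2.31 ± 0.38 SE). P2ry12, the ADP receptor of surveying microglia, stood at 28.2, 14.9, 14.6 and 56.5 FPKM in SCI cords, against 32.2, 8.95 and 9.49 FPKM in uninjured cords. Its levels followed library kind more than injury and it was not called (adjusted p = 0.946, 0.340 with the block); without the 3 libraries its change was 0.62 ± 0.08 (SE, adjusted p = 0.0132).

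Receptors that bind opsonised debris were called higher in part. Of 22 Fc receptor and phagocytic genes 11 were called higher with all 7 libraries, 18 with the replicate block and 19 without the 3 libraries (median 1.72). Fcgr4, an activating immunoglobulin receptor, stood at 4.43, 5.03, 4.99 and 5.29 FPKM in SCI cords, against 0, 0.232 and 0.195 FPKM in uninjured cords. Groups stood clear of each other (2.38 ± 0.18 SE, adjusted p = 0.00314). Fcgr3 and Fcer1g, the signalling chain it needs, rose by 3.12 ± 0.21 and 3.36 ± 0.26 (SE), and Havcr2, the checkpoint receptor TIM-3, by 2.20 ± 0.18 (SE). Of 30 lysosome genes 8 were called higher with all 7 libraries, 20 with the replicate block and 22 without the 3 libraries (median 1.37). Ctss, a protease that loads MHC class II, stood at 319, 334, 369.7 and 425 FPKM in SCI cords, against 45.9, 49.3 and 40.2 FPKM in uninjured cords. The groups are far apart and library kind made little difference to it (2.97 ± 0.21 SE, adjusted p = 0.00248). Ctsz, another cathepsin, averaged 157 ± 23.01 FPKM in SCI cords (SD, n = 4) and 23.8 ± 5.32 FPKM in uninjured cords (SD, n = 3) (2.68 on the log2 scale). Atp6v0d2, a proton pump subunit of macrophages and osteoclasts chosen after its values were seen, had 0 reads in all 3 uninjured libraries and stood at 6.37, 1.63, 2.42 and 12.1 FPKM in SCI cords. Against a floor of 3 reads per library, which covers counting error only, that is at least 84.8-fold higher.

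Genes for taking up and storing lipid rose in part. Of 19 lipid handling and efflux genes 5 were called higher with all 7 libraries, 12 with the replicate block and 13 without the 3 libraries (median 1.36). Cd36, a scavenger receptor for oxidised lipid, stood at 19.5, 7.99, 5.15 and 17.1 FPKM in SCI cords, against 0.324, 0.189 and 0.451 FPKM in uninjured cords (3.18 ± 0.44 SE, adjusted p = 0.0228). Plin2, which coats lipid droplets, stood at 26.2 to 35.1 FPKM in SCI cords, against 1.94 to 5.80 FPKM in uninjured cords (2.67 ± 0.33 SE). Lpl, a lipase, stood at 8.15 to 17.3 FPKM in SCI cords, against 1.06 to 1.47 FPKM in uninjured cords (2.48 ± 0.28 SE). No uninjured library reached an injured one in these 3 genes. Of 21 genes of oxidative defence and the NADPH oxidase, which makes superoxide in phagosomes, 3 were called higher with all 7 libraries, 9 with the replicate block and 11 without the 3 libraries, and 0, 1 and 3 lower in the same fits. Those called with all 7 libraries included the oxidase subunits Cybb, at 3.47 to 6.60 FPKM in SCI cords, against 0.186 to 0.286 FPKM in uninjured cords (2.11 ± 0.23 SE), and Ncf1 (adjusted p = 0.0152). Of 16 iron and haem genes 1 was called higher with all 7 libraries, 6 with the replicate block and 8 without the 3 libraries, and 0, 0 and 1 lower in the same fits. Among all genes 1.03%, 5.32% and 12.2% were called higher in the 3 fits, and 0.0132%, 1.47% and 11.7% lower. Slc11a1, an iron exporter of phagosomes, rose by 1.96 ± 0.33 (SE), while the ferritin gene Fth1 overlapped at 1056, 1527, 1429 and 1166 FPKM in SCI cords, against 1152, 1273 and 863 FPKM in uninjured cords.

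Innate sensors, chemokines and their receptors were called higher in part. Of 18 toll-like and innate sensor genes 3 were called higher with all 7 libraries, 11 with the replicate block and 16 without the 3 libraries (median 1.22). Tlr7, which senses RNA in endosomes, stood at 7.40, 4.69, 5.71 and 10.6 FPKM in SCI cords, against 0.549, 0.428 and 0.541 FPKM in uninjured cords. The groups did not overlap (2.37 ± 0.27 SE, adjusted p = 0.0111). Tlr2 and Tlr1, which bind lipoproteins as a dimer, rose by 1.95 ± 0.24 and 1.32 ± 0.22 (SE). Of 18 chemokine ligands 4 were called higher with all 7 libraries, 8 with the replicate block and 13 without the 3 libraries, and 0, 0 and 1 lower in the same fits (median 1.32). Ccl3, a ligand of Ccr1, stood at 3.12 to 4.82 FPKM in SCI cords, against 0 to 0.325 FPKM in uninjured cords (2.03 ± 0.21 SE). Cxcl16, a membrane-bound ligand, stood at 4.98 to 8.08 FPKM in SCI cords, against 0.989 to 1.09 FPKM in uninjured cords (1.82 ± 0.21 SE). Ccl12, which draws monocytes, stood at 9.31, 4.08, 9.91 and 20.2 FPKM in SCI cords, against 0, 0.361 and 0.366 FPKM in uninjured cords (3.09 ± 0.45 SE). In Ccl12 the injured libraries spread widely, with the highest among those that stand apart. Of 27 chemokine and cytokine receptors 3 were called higher with all 7 libraries, 22 with the replicate block and 24 without the 3 libraries, and 0, 0 and 1 lower in the same fits. The 3 called with all 7 libraries were Cxcr4, the receptor of Cxcl12 (7.55 to 14.2 FPKM in SCI cords, against 1.64 to 2.25 FPKM in uninjured cords; 1.85 ± 0.26 SE), Ccr1 (1.11 ± 0.17 SE) and Tgfbr2, a receptor of TGF-beta (1.45 ± 0.24 SE). Of 15 cytokines 2 were called higher with all 7 libraries, 5 with the replicate block and 9 without the 3 libraries; those called with all 7 were Lgals3 and Spp1. Spp1, which encodes osteopontin and is also made by motor neurons, stood at 1140.0, 613, 356 and 1064 FPKM in SCI cords, against 152, 89.2 and 72.4 FPKM in uninjured cords (2.84 ± 0.48 SE, adjusted p = 0.0462). Of 18 complement genes 6 were called higher with all 7 libraries, 14 with the replicate block and 15 without the 3 libraries, with Itgb2, the shared chain of its receptors, at 16.9 to 21.6 FPKM in SCI cords, against 1.496 to 2.16 FPKM in uninjured cords (2.87 ± 0.20 SE), Itgam at 1.76 ± 0.19 (SE), C3ar1, the receptor for C3a, at 3.52 ± 0.33 (SE) and C1qb, a chain of the first component, at 208, 361, 391 and 138 FPKM in SCI cords, against 11.9, 34.4 and 24.2 FPKM in uninjured cords (3.49 ± 0.49 SE).

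Some interferon-responsive genes were called higher with all 7 libraries, and most were without the 3. Of 29 type I interferon-stimulated genes that were kept 4 were called higher with all 7 libraries, 15 with the replicate block and 27 without the 3 libraries. All 29 had a log2 change above 0 (median 1.11, against -0.05 over all genes tested). Since members low in uninjured cords pass the filter in part through injured ones, this shared direction is a description. The 4 called with all 7 libraries were low in uninjured cords. Ifi207, a nuclear DNA-binding protein, stood at 3.58, 2.18, 2.93 and 5.88 FPKM in SCI cords, against 0, 0.0425 and 0.0287 FPKM in uninjured cords (2.12 ± 0.28 SE, adjusted p = 0.0203). Cxcl10, a ligand of the T cell receptor Cxcr3, stood at 3.97, 2.10, 4.92 and 3.91 FPKM in SCI cords, against 0, 0.302 and 0.632 FPKM in uninjured cords (1.84 ± 0.29 SE). Ifi204 and Slfn2 rose by 1.85 ± 0.30 and 1.64 ± 0.24 (SE); Ifi207 and Ifi204 have near-identical relatives, so how their shared reads were assigned is uncertain. Promoters of Ifi207 and Cxcl10 are shown because they are called and hold the interferon-stimulated response element, a pair of GAAA runs a few bases apart, on either strand. Of 22 kept genes of the list with a RefSeq promoter, 11 held it within the 250 bases before the start, against 3.01% of 10739 kept genes and 3.46% of 27025 genes in the whole table. A match is a run of letters, not a site that was shown to act; capitals mark it, first at base -41 in Ifi207 and at base -213 in Cxcl10, counted back from the start.
Ifi207 promoter, GRCm38.p6, chr1:173741810-173742059, minus strand: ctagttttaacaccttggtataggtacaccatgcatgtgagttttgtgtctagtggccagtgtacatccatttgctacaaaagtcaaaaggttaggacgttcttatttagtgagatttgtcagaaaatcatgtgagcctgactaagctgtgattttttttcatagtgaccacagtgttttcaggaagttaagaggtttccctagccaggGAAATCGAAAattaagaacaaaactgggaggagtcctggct
Cxcl10 promoter, GRCm38.p6, chr5:92348890-92349139, minus strand: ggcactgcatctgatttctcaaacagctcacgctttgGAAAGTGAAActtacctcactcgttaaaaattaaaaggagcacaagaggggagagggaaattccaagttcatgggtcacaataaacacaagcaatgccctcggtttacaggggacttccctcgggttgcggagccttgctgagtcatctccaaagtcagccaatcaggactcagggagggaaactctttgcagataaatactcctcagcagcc

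Of 13 interferon gamma-induced genes 0 were called higher with all 7 libraries, 6 with the replicate block and 11 without the 3 libraries. Gbp2, a GTPase that attacks vacuoles of pathogens, stood at 6.85, 6.71, 9.78 and 16.8 FPKM in SCI cords, against 3.46, 2.31 and 2.20 FPKM in uninjured cords. The groups did not overlap, though the change of 1.52 ± 0.34 (SE) was not called (adjusted p = 0.108, 0.0395 with the block). Of 14 MHC class I genes 0 were called higher with all 7 libraries, 6 with the replicate block and 13 without the 3 libraries. B2m, the light chain of class I, stood at 847, 352, 365 and 1764 FPKM in SCI cords, against 442, 127 and 88.4 FPKM in uninjured cords. In each kind of library the injured cords were higher, but control uninjured replicate 1 lay above the injured cords of the other kind, and the change was 1.95 ± 0.75 (SE, adjusted p = 0.432, 0.0420 with the block). Of 9 MHC class II genes 1 was called higher with all 7 libraries, 4 with the replicate block and 7 without the 3 libraries; the one called with all 7 was Ctss, and Cd74, the invariant chain, stood at 11.4, 17.4, 19.1 and 9.64 FPKM in SCI cords, against 4.20, 8.49 and 4.68 FPKM in uninjured cords (1.18 ± 0.33 SE, adjusted p = 0.214, 0.0323 with the block).

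Most markers of T, NK, B and plasma cells were too low to pass the filter. Summed over 16 T and NK cell markers, levels were 3.15 to 5.09 FPKM in SCI cords, against 3.49 to 5.10 FPKM in uninjured cords, and 2 markers passed the filter on low values, neither of them called. Summed over 15 neutrophil markers, they were 24.6 to 52.3 FPKM in SCI cords, against 15.7 to 26.9 FPKM in uninjured cords. Of the 10 kept, 0 were called higher with all 7 libraries, 2 with the replicate block and 5 without the 3 libraries, and 0, 0 and 1 lower in the same fits. S100a9, an abundant neutrophil alarmin, overlapped between the groups at 4.41, 11.2, 10.7 and 6.60 FPKM in SCI cords, against 9.86, 5.76 and 3.29 FPKM in uninjured cords. Lcn2, an iron-binding protein that reactive astrocytes make too, stood at 12.5, 8.32, 13.99 and 3.07 FPKM in SCI cords, against 1.90, 0.740 and 0.318 FPKM in uninjured cords (2.32 ± 0.50 SE, adjusted p = 0.102, 0.0152 with the block). The 12 B and plasma cell markers summed to 17.2 to 24.996 FPKM in SCI cords, against 16.0 to 21.3 FPKM in uninjured cords. Of the 3 kept only Cd22 was called, at 1.29, 1.62, 1.65 and 1.54 FPKM in SCI cords, against 0, 0.0192 and 0.0389 FPKM in uninjured cords (1.31 ± 0.17 SE, adjusted p = 0.0169). Cd22, a sialic acid receptor, is also expressed by microglia. Ighm, the heavy chain of IgM, overlapped at 10.8 to 21.2 FPKM in SCI cords, against 10.3 to 18.8 FPKM in uninjured cords. The 12 dendritic cell markers summed to 8.55 to 45.1 FPKM in SCI cords, against 7.71 to 12.7 FPKM in uninjured cords, and of the 4 kept 0 were called higher with all 7 libraries, 2 with the replicate block and 2 without the 3 libraries, and 0, 0 and 1 lower in the same fits. The 12 mast cell and platelet markers summed to 6.09 to 12.8 FPKM in SCI cords, against 4.23 to 5.27 FPKM in uninjured cords, without overlap, and of the 2 kept 0 were called higher with all 7 libraries, 1 with the replicate block and 1 without the 3 libraries. Of 7 kept monocyte markers 1 was called higher with all 7 libraries, 4 with the replicate block and 5 without the 3 libraries, and of 9 kept markers of border-associated macrophages 2 were called higher with all 7 libraries, 4 with the replicate block and 9 without the 3 libraries. Over all genes 1.03%, 5.32% and 12.2% were called higher in these 3 fits. F13a1, a coagulation factor subunit in both of these lists, stood at 4.56, 2.72, 3.02 and 3.84 FPKM in SCI cords, against 0.0616, 0.338 and 0.277 FPKM in uninjured cords (1.88 ± 0.22 SE), and Ms4a7 of the second at 1.44 to 3.32 FPKM in SCI cords, against 0 to 0.0220 FPKM in uninjured cords (1.72 ± 0.23 SE). Of 7 kept erythroid genes 0 were called higher with all 7 libraries, 5 with the replicate block and 4 without the 3 libraries. The list summed to 203 to 4039 FPKM in SCI cords, against 60.4 to 85.8 FPKM in uninjured cords. Hba-a1, an alpha globin, stood at 737, 1918, 198 and 58.7 FPKM in SCI cords, against 10.9, 19.5 and 8.64 FPKM in uninjured cords. The injured libraries differed widely, all above the uninjured ones, and the change of 4.76 ± 1.103 (SE) was not called (adjusted p = 0.122, 0.00901 with the block); reads of its near-identical copy Hba-a2 could be divided between them.

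Genes of reactive astrocytes were called higher in part. Of 25 reactive astrocyte genes 8 were called higher with all 7 libraries, 22 with the replicate block and 23 without the 3 libraries (median 1.66, 1.56 without the 3). Serpina3n, a secreted protease inhibitor, stood at 199, 305, 372 and 214 FPKM in SCI cords, against 21.9, 28.2 and 26.9 FPKM in uninjured cords (3.32 ± 0.29 SE, adjusted p = 0.00499). Vim, the filament protein vimentin, stood at 129, 141, 178 and 257 FPKM in SCI cords, against 24.2, 26.6 and 23.7 FPKM in uninjured cords, with the highest value in an injured library that stands apart (2.73 ± 0.28 SE, adjusted p = 0.00827). Tgm1, a transglutaminase, and Cd109, a surface protein that binds TGF-beta, rose by 1.66 ± 0.19 and 2.29 ± 0.28 (SE). Gfap, the filament gene named after its values were seen, stood at 1057, 1770.5, 1782 and 1023 FPKM in SCI cords, against 187, 551 and 525 FPKM in uninjured cords, without overlap, and was not called (1.84 ± 0.45 SE, adjusted p = 0.150, 0.0193 with the block). Of 16 genes of resting astrocytes 0 were called higher with all 7 libraries, 0 with the replicate block and 1 without the 3 libraries, and 0, 0 and 1 lower (median 0.06). S100b, a calcium-binding protein of astrocytes, stood at 489.7, 489, 503 and 494 FPKM in SCI cords, against 523, 472 and 443 FPKM in uninjured cords. The injured values lay within the range of the uninjured ones, and the log2 change was 0.05 ± 0.20 (SE). Glul, glutamine synthetase, also overlapped, at 304, 370.5, 383 and 272 FPKM in SCI cords, against 340.5, 435 and 412 FPKM in uninjured cords.

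Scar matrix genes were higher in injured cords, by amounts that differed between cords. Of 23 fibroblast and scar matrix genes 5 were called higher with all 7 libraries (median 2.03). With the replicate block 16 were, and without the 3 libraries 22. In 20 of the 23 every injured library lay above every uninjured one, against 7.79% of all genes. Members that are low in uninjured cords pass the filter in part through the injured ones. Col3a1, a fibrillar collagen, stood at 23.05, 52.9, 169 and 63.3 FPKM in SCI cords, against 1.04, 3.63 and 1.92 FPKM in uninjured cords. The injured cords differed widely, and all lay above the uninjured ones (4.34 ± 0.64 SE, adjusted p = 0.0273). Lum, a collagen-binding proteoglycan, stood at 16.7, 12.6, 28.1 and 30.8 FPKM in SCI cords, against 3.66, 2.97 and 2.09 FPKM in uninjured cords (2.49 ± 0.35 SE). Col8a1, a network collagen, stood at 4.83 to 13.4 FPKM in SCI cords, against 0.445 to 0.752 FPKM in uninjured cords (2.52 ± 0.37 SE). Bgn, biglycan, stood at 16.3 to 55.1 FPKM in SCI cords, against 2.07 to 5.26 FPKM in uninjured cords (2.84 ± 0.45 SE). Of 22 genes of matrix proteases and their inhibitors 4 were called higher with all 7 libraries, 12 with the replicate block and 14 without the 3 libraries, and 0, 0 and 1 lower in the same fits (median 1.15). Mmp12, the elastase of macrophages, stood at 5.57, 2.93, 2.21 and 5.96 FPKM in SCI cords, against 0, 0.00670 and 0.00678 FPKM in uninjured cords (2.29 ± 0.31 SE, adjusted p = 0.0222). Timp1, an inhibitor of these proteases, stood at 7.91, 27.8, 32.9 and 8.52 FPKM in SCI cords, against 0, 0.601 and 0.608 FPKM in uninjured cords (3.63 ± 0.55 SE), and Plau, a plasminogen activator, rose by 1.89 ± 0.24 (SE). Of 15 basement membrane genes 0 were called higher with all 7 libraries, 5 with the replicate block and 11 without the 3 libraries. Col4a1, their main collagen, stood at 10.002, 23.5, 28.01 and 11.98 FPKM in SCI cords, against 2.44, 7.62 and 7.00 FPKM in uninjured cords, not called at 1.53 ± 0.48 (SE, adjusted p = 0.275, 0.00836 with the block).

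Signalling genes of macrophages and scar gave few calls with all 7 libraries. Of 8 genes of the CSF1 axis, which keeps microglia and macrophages alive, 0 were called higher with all 7 libraries, 6 with the replicate block and 7 without the 3 libraries (median 1.30). Csf1r, the receptor of CSF1, stood at 36.8, 57.4, 63.0 and 30.2 FPKM in SCI cords, against 6.02, 14.9 and 14.98 FPKM in uninjured cords. All injured cords were above the uninjured ones, but the change of 1.92 ± 0.40 (SE) was not called (adjusted p = 0.0927, 0.00787 with the block). Of 18 transcription factors of microglia and macrophages 1 was called higher with all 7 libraries, 6 with the replicate block and 9 without the 3 libraries. Runx1, a factor of blood cell formation, stood at 1.28, 1.31, 1.51 and 1.62 FPKM in SCI cords, against 0.159, 0.173 and 0.110 FPKM in uninjured cords (1.08 ± 0.17 SE, adjusted p = 0.0331). Of 25 TGF-beta and BMP genes 2 were called higher with all 7 libraries, 9 with the replicate block and 13 without the 3 libraries, and 0, 0 and 1 lower in the same fits, Tgfbr2 among those called with all 7 libraries. Of 14 gp130 and STAT3 genes 0 were called higher with all 7 libraries, 6 with the replicate block and 10 without the 3 libraries. Il6st, which encodes gp130, stood at 22.8, 22.5, 23.9 and 29.9 FPKM in SCI cords, against 16.6, 17.0 and 16.0 FPKM in uninjured cords. Groups stood clear of each other (0.55 ± 0.20 SE, adjusted p = 0.388, 0.0261 without the 3). For genes of barriers to axon growth the counts are set against 1.03%, 5.32% and 12.2% of all genes called higher in the 3 fits, and 0.0132%, 1.47% and 11.7% called lower. Of 16 chondroitin sulfate proteoglycan genes 0 were called higher with all 7 libraries, 3 with the replicate block and 3 without the 3 libraries. In the same fits 0, 1 and 4 were called lower. In 5 of the 16 every injured library lay above every uninjured one and in 0 below, against 7.79% and 4.76% of all genes. Bcan, brevican, overlapped at 16.4, 71.8, 72.5 and 7.96 FPKM in SCI cords, against 12.2, 106 and 103 FPKM in uninjured cords. Cd44 of the same list did not, at 10.4 to 23.8 FPKM in SCI cords, against 3.05 to 3.69 FPKM in uninjured cords (1.76 ± 0.31 SE, limma adjusted p = 0.0525). Of 25 genes of axon guidance and growth inhibition 0 were called higher with all 7 libraries, 2 with the replicate block and 3 without the 3 libraries, and 0, 0 and 7 lower in the same fits. Rtn4, which encodes Nogo, overlapped at 161, 119, 118 and 218 FPKM in SCI cords, against 197, 119 and 122 FPKM in uninjured cords.

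Of 20 endothelial genes 0 were called higher with all 7 libraries, 4 with the replicate block and 5 without the 3 libraries, and 0, 0 and 1 lower in the same fits (median 0.23). Over all genes 1.03%, 5.32% and 12.2% were called higher in these fits. Cldn5, a tight junction protein, followed library kind: it stood at 14.995, 68.5, 64.7 and 5.43 FPKM in SCI cords, against 8.56, 31.9 and 24.3 FPKM in uninjured cords. Injured and uninjured cords overlapped over all 7 libraries. In the 4 libraries that do not stand apart it was higher in injured cords by 1.23 ± 0.15 (SE, adjusted p = 0.0118), against 0.39 ± 0.91 over all 7 (SE, adjusted p = 0.999, 0.0344 with the block). Of 12 pericyte and smooth muscle genes 0 were called higher with all 7 libraries, 3 with the replicate block and 5 without the 3 libraries. Acta2, smooth muscle actin, stood at 7.29, 7.00, 12.1 and 5.52 FPKM in SCI cords, against 3.52, 3.67 and 2.12 FPKM in uninjured cords, without overlap but not called (1.103 ± 0.30 SE, adjusted p = 0.188). Of 11 genes of meningeal fibroblasts 0 were called higher with all 7 libraries, 3 with the replicate block and 11 without the 3 libraries (median 1.19). The list summed to 197 to 929 FPKM in SCI cords, against 168 to 448 FPKM in uninjured cords, ranges that overlap, and the part of meninges carried with the cord in the scar changes was not tested. Skeletal muscle markers, another tissue a dissection can carry, summed to 18.6 to 119 FPKM in SCI cords, against 108 to 129 FPKM in uninjured cords, with 0 of 13 kept called higher with all 7 libraries and Tnnc2 at 0 in all of them; their part in these results was not tested.

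Cell division genes had low levels, and their values were higher in injured cords. Of 20 such genes 13 passed the filter, of which 0 were called higher with all 7 libraries, 5 with the replicate block and 11 without the 3 libraries (median 0.97). In 11 of the 13 the injured libraries lay above every uninjured one, against 7.79% of all genes, though genes of such low level pass the filter in part through the injured cords. Rrm2, a subunit of ribonucleotide reductase, stood at 2.55, 2.59, 2.80 and 3.97 FPKM in SCI cords, against 0.569, 1.03 and 0.921 FPKM in uninjured cords (1.11 ± 0.21 SE, adjusted p = 0.0679, 0.0307 with the block). Ccnb2, a mitotic cyclin, stood at 2.16, 2.83, 2.24 and 2.05 FPKM in SCI cords, against 0.922, 0.285 and 0.417 FPKM in uninjured cords (1.12 ± 0.21 SE, adjusted p = 0.0662, 0.0458 with the block). Of 14 DNA replication genes 0 were called higher with all 7 libraries, 0 with the replicate block and 3 without the 3 libraries, and Pcna, the replication clamp, overlapped at 20.6, 14.3, 14.2 and 27.97 FPKM in SCI cords, against 21.4, 12.4 and 9.90 FPKM in uninjured cords. Of 16 p53 target and arrest genes 0 were called higher with all 7 libraries, 3 with the replicate block and 9 without the 3 libraries, and 0, 0 and 1 lower in the same fits. Counts in this paragraph are set against 1.03%, 5.32% and 12.2% of all genes called higher in the 3 fits. Called lower were 0.0132%, 1.47% and 11.7% of all genes. Of 18 galectin, annexin and S100 genes 2 were called higher with all 7 libraries, 11 with the replicate block and 15 without the 3 libraries. Anxa3, which binds membrane phospholipid, stood at 16.9, 15.6, 19.0 and 22.97 FPKM in SCI cords, against 3.83, 3.35 and 3.10 FPKM in uninjured cords (2.14 ± 0.21 SE, adjusted p = 0.00681). Igf1, a growth factor of microglia, was the only member of 17 growth factors called with all 7 libraries, at 7.34, 9.44, 13.5 and 23.999 FPKM in SCI cords, against 1.29, 1.30 and 1.05 FPKM in uninjured cords (2.59 ± 0.38 SE, adjusted p = 0.0264). Of these growth factors 2 were called higher and 1 lower with the replicate block, and 6 higher and 4 lower without the 3 libraries. Of 14 metallothionein and heat shock genes none was called with all 7 libraries, 3 were called higher with the block and 4 without the 3 libraries. Mt1, a zinc-binding protein, stood at 505, 561, 545 and 371 FPKM in SCI cords, against 142, 246 and 131 FPKM in uninjured cords. The groups did not overlap (1.55 ± 0.30 SE, adjusted p = 0.0739, 0.0246 with the block).

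Genes that cut neurons switch on included some of the largest rises. Of 18 regeneration-associated genes 2 were called higher with all 7 libraries, 8 with the replicate block and 11 without the 3 libraries (median 0.80). Sprr1a (ENSMUSG00000050359, chromosome 3, 92391259 to 92393202), a cornified-envelope protein that promotes axon growth, stood at 28.6, 56.3, 58.4 and 32.4 FPKM in SCI cords, against 0, 0.602 and 0.365 FPKM in uninjured cords (5.04 ± 0.34 SE, adjusted p = 0.00229). Atf3, a transcription factor of injured neurons, stood at 10.8, 13.1, 12.3 and 12.4 FPKM in SCI cords, against 0.809, 0.630 and 0.365 FPKM in uninjured cords, with the injured cords alike in both kinds of library (3.05 ± 0.19 SE, adjusted p = 0.00222). The Sprr1a promoter is shown with those of C3ar1 and Cd68 because these are the 3 of the 15 largest rises that hold the AP-1 motif TGANTCA, the letters bound by dimers of Jun with Fos or Atf proteins, on either strand of the 250 bases before the start. They make 20.0% of the 15, against 5.56% of kept genes and 7.82% of genes in the whole RefSeq table. The motif is not particular to the largest rises: 13.2% of genes called higher and 31.8% of the kept interferon-stimulated genes with a promoter held it. Capitals mark the matches, at bases -146 and -116 in Sprr1a, -22 in C3ar1, and -149 and -24 in Cd68.
Sprr1a promoter, GRCm38.p6, chr3:92485882-92486131, minus strand: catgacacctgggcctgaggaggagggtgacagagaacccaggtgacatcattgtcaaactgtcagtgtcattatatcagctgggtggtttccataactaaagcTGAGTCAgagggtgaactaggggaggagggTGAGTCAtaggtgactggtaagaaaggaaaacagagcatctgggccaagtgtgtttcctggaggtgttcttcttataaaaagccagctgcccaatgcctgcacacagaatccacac
C3ar1 promoter, GRCm38.p6, chr6:122856158-122856407, minus strand: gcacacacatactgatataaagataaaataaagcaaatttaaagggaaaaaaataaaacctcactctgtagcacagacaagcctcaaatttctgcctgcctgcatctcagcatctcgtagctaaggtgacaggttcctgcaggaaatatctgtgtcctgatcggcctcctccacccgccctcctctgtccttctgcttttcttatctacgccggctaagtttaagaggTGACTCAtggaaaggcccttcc
Cd68 promoter, GRCm38.p6, chr11:69666171-69666420, minus strand: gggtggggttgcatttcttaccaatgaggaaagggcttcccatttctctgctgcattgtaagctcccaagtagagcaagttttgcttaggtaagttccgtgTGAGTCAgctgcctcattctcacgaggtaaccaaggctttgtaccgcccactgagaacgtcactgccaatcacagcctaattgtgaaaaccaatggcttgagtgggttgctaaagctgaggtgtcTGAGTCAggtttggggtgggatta

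Values of most general neuron genes were lower in injured cords within both kinds of library. Of 24 neuron and synapse genes 0 were called lower with all 7 libraries, 5 with the replicate block and 18 without the 3 libraries, and 0, 0 and 1 higher in the same fits; with library kind as a term 12 were lower, and 14 lay below the uninjured cords within both kinds of library, against 19.4% of all genes. Over all genes 0.0132%, 1.47% and 11.7% were called lower in the first 3 of these fits. The median was -0.62. Snap25, a protein of vesicle fusion, stood at 404, 223, 181 and 455 FPKM in SCI cords, against 764, 355 and 353 FPKM in uninjured cords. Within each kind the injured cords were lower, and the libraries that stand apart were higher than the others (-0.64 ± 0.45 SE, adjusted p = 0.870, 0.0473 with the block). Nefl, a neurofilament subunit, stood at 330.5, 289, 229 and 299 FPKM in SCI cords, against 598, 451 and 431 FPKM in uninjured cords. Groups stood clear of each other (-0.78 ± 0.24 SE, adjusted p = 0.273). Of 21 neurotransmitter receptor genes 0 were called lower with all 7 libraries, 11 with the replicate block and 17 without the 3 libraries. All 21 had a log2 change below 0 (median -0.58, against -0.05 over all genes tested). Of 18 voltage-gated channel genes 0 were called lower with all 7 libraries, 4 with the replicate block and 15 without the 3 libraries (median -0.66).

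Glycine, with GABA, is the inhibitory transmitter of the cord, and some of its genes were lower without overlap. Glra1, the adult glycine receptor subunit, stood at 17.0, 4.68, 10.2 and 20.01 FPKM in SCI cords, against 26.3, 31.2 and 38.8 FPKM in uninjured cords. Slc6a5, the transporter that refills glycine terminals, stood at 49.997, 31.7, 32.1 and 37.7 FPKM in SCI cords, against 75.4, 74.8 and 95.0 FPKM in uninjured cords. Neither overlapped between groups, and neither was called with all 7 libraries (-1.39 ± 0.46 and -1.104 ± 0.24 SE, adjusted p = 0.318 and 0.108); without the 3 libraries both were, at -2.17 ± 0.34 and -1.37 ± 0.14 (SE, adjusted p = 0.0180 and 0.00905). Glrb, the partner subunit of Glra1, overlapped over all 7 at 108, 50.6, 45.8 and 109 FPKM in SCI cords, against 182, 80.9 and 86.8 FPKM in uninjured cords. Within each kind of library Glrb was lower in injured cords. Its change was -0.58 ± 0.45 over all 7 (SE, limma adjusted p = 0.930, 0.0420 with the block). Without the 3 libraries it was -0.79 ± 0.11 (SE, adjusted p = 0.0135). Of 12 inhibitory neuron genes 0 were called lower with all 7 libraries, 1 with the replicate block and 7 without the 3 libraries, and 0, 0 and 1 higher in the same fits, and of 12 excitatory dorsal horn genes 0 were called lower with all 7 libraries, 1 with the replicate block and 1 without the 3 libraries (medians -0.49 and 0.07). Neuropeptide levels overlapped. Penk, which encodes enkephalin, stood at 129, 126, 100 and 93.4 FPKM in SCI cords, against 122, 75.5 and 52.5 FPKM in uninjured cords. Sst, somatostatin, stood at 46.7, 118, 95.2 and 34.4 FPKM in SCI cords, against 59.6, 131 and 68.4 FPKM in uninjured cords. Of 14 motor neuron genes 1 was called higher with all 7 libraries, 1 with the replicate block and 2 without the 3 libraries, Spp1 in each, and 0, 2 and 8 were called lower. These counts of neuron genes are set against 0.0132%, 1.47% and 11.7% of all genes called lower in the 3 fits. Called higher were 1.03%, 5.32% and 12.2% of all genes.

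Of 20 mature oligodendrocyte genes none was called in either direction with all 7 libraries, and 1 was lower with the block and 2 without the 3 libraries (median -0.14), shares to be read against 0.0132%, 1.47% and 11.7% of all genes. Mbp, the myelin basic protein, stood at 526, 1768, 1723 and 341 FPKM in SCI cords, against 421, 1654 and 1677 FPKM in uninjured cords. The groups overlap, and Mbp was lower in all 3 libraries that stand apart, whatever their group. Of 16 genes of their precursors 0 were called higher with all 7 libraries, 2 with the replicate block and 3 without the 3 libraries (median 0.17). Sterol synthesis genes, which myelin growth draws on, had lower values. Of 18 genes 0 were called lower with all 7 libraries, 6 with the replicate block and 16 without the 3 libraries. All 18 had a log2 change below 0 (median -0.68, against -0.05 over all genes tested). Insig1, which the sterol sensor SREBP2 turns on, stood at 38.5, 28.4, 24.2 and 30.3 FPKM in SCI cords, against 57.4, 67.9 and 64.6 FPKM in uninjured cords. The groups did not overlap (-1.05 ± 0.23 SE, adjusted p = 0.102, 0.00691 without the 3). Hmgcs1, an early enzyme of the pathway, stood at 108, 56.1, 43.6 and 130.4 FPKM in SCI cords, against 197, 105 and 103 FPKM in uninjured cords (-0.74 ± 0.46 SE, adjusted p = 0.808, 0.0320 with the block). Of 15 Schwann cell genes 0 were called in any of these 3 fits, where 1.04%, 6.80% and 23.9% of all genes were. Yet the 18 listed genes summed to 499 to 689 FPKM in SCI cords, against 769 to 998 FPKM in uninjured cords, without overlap. Within both kinds of library 8 of the 15 lay below the uninjured cords and 0 above, against 19.4% and 18.3% of all genes. Of 9 ependymal genes 0 were called higher with all 7 libraries, 0 with the replicate block and 1 without the 3 libraries. Of 26 nuclear genes of oxidative phosphorylation 0 were called lower with all 7 libraries, 0 with the replicate block and 1 without the 3 libraries (median -0.22).

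**Figure D3:**
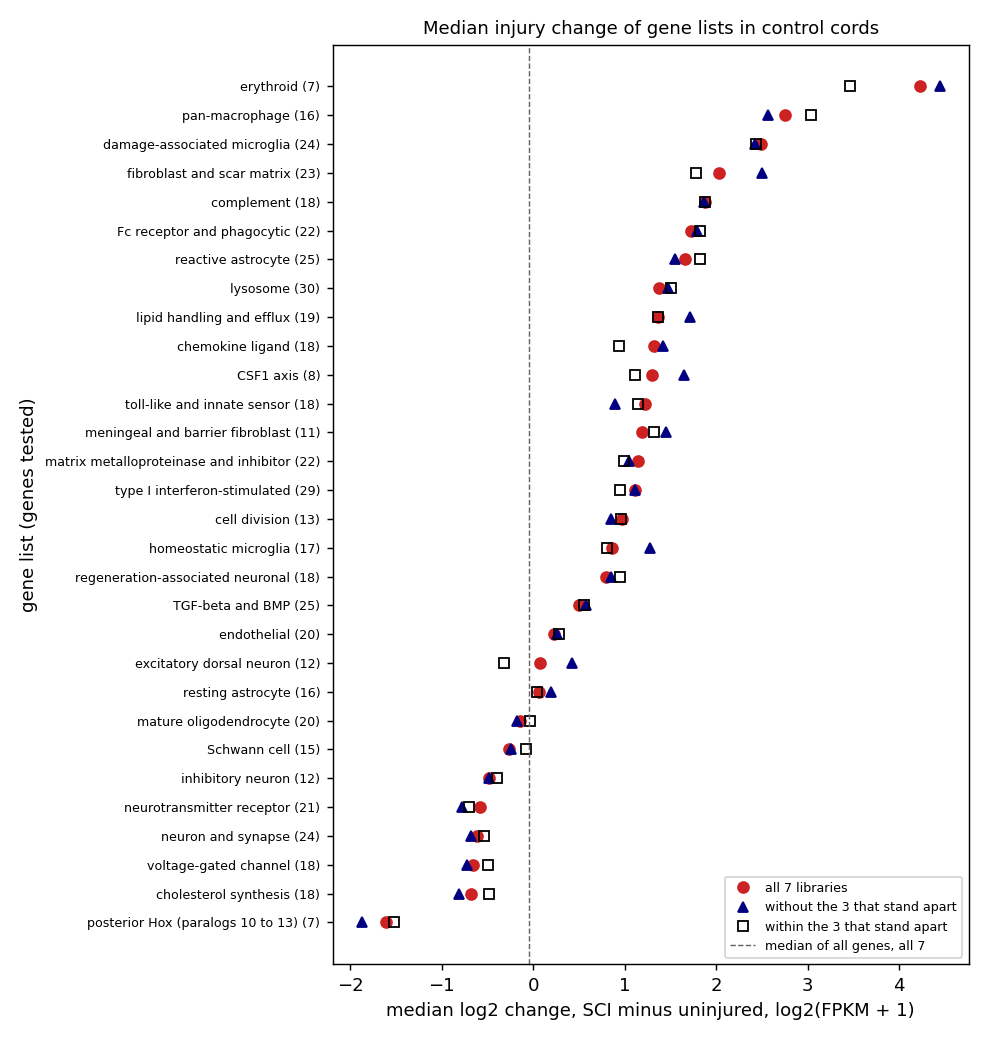
Median log2 change with injury of 30 gene lists on the log2(FPKM + 1) scale, with all 7 libraries (filled circles), without the 3 libraries that stand apart (triangles) and within those 3 (open squares); the dashed line is the median of all genes tested with all 7 libraries. The erythroid list lies furthest to the right, followed by the pan-macrophage, damage-associated microglia and scar matrix lists, and the posterior Hox list lies furthest to the left.

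Hox genes of the posterior body were lower in every injured cord. Hox genes are transcription factors whose order in 4 clusters follows the body axis, and paralogs 10 and up mark lumbar and more caudal levels. The table lists 12 genes of paralogs 10 to 13. The filter on low values kept 7, and in these every injured library lay below every uninjured one, against 4.76% of all genes. A gene near 0 in injured cords passes the filter only through the uninjured ones, so this count is a description. Of them 1 was called lower with all 7 libraries, 4 with the replicate block and 7 without the 3 libraries (median -1.61, -1.45 with genes at 0 reads set to the floor). Hoxd10 (ENSMUSG00000050368, chromosome 2, 74522268 to 74525449 of mm39) stood at 2.60, 0, 0 and 0 FPKM in SCI cords, against 33.9, 10.04 and 9.41 FPKM in uninjured cords. Its only reads in injured cords were in control SCI replicate 1 (-3.53 ± 0.62 SE, adjusted p = 0.0508, 0.00369 with the block). Hoxc10 stood at 13.7, 6.10, 4.79 and 4.00 FPKM in SCI cords, against 43.9, 23.7 and 21.4 FPKM in uninjured cords (-1.98 ± 0.44 SE) and Hoxa10 at 6.87, 2.04, 0.973 and 0.452 FPKM in SCI cords, against 11.96, 9.21 and 8.80 FPKM in uninjured cords (-1.92 ± 0.55 SE). Hoxc11, Hoxc12 and Hoxd11 had 0 reads in all 4 injured cords. Against a floor of 3 reads per library, which covers counting error only, they were at least 26.7-fold, 13.9-fold and 32.1-fold lower than the control uninjured means of 2.09, 2.12 and 1.204 FPKM. Hoxc12 was called (adjusted p = 0.0244). Most anterior and middle Hox genes overlapped between the groups. Hoxd4, without overlap but not called, stood at 1.35, 1.02, 0.961 and 1.27 FPKM in SCI cords, against 0.901, 0.823 and 0.716 FPKM in uninjured cords (0.24 ± 0.17 SE, adjusted p = 0.879). Of 11 of paralogs 1 to 5 and 12 of paralogs 6 to 9 none was called in either direction with all 7 libraries, and without the 3 libraries 1 of the second group was higher and 1 lower (medians -0.16 and -0.34). Hoxc8 stood at 17.3, 23.2, 22.8 and 28.1 FPKM in SCI cords, against 16.1, 24.8 and 23.8 FPKM in uninjured cords and Hoxc9 at 3.35, 9.97, 8.94 and 6.36 FPKM in SCI cords, against 5.09, 8.20 and 6.81 FPKM in uninjured cords. At the boundary, Hoxd9 stood at 2.79, 5.35, 3.00 and 0.720 FPKM in SCI cords, against 3.50, 15.2 and 11.9 FPKM in uninjured cords (-1.45 ± 0.57 SE, adjusted p = 0.455, 0.0206 without the 3). Injury and a difference in the level of cord sampled cannot be told apart in these groups, and reads of antisense genes in the clusters cannot be told from the Hox genes, since strand was not kept.

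**Figure D4:**
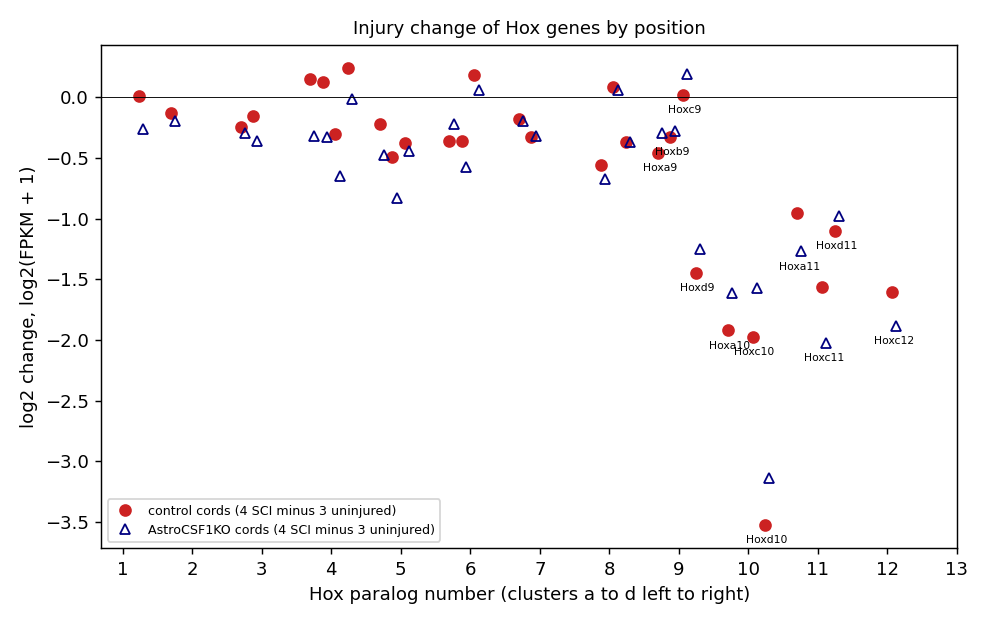
Log2 change with injury of each kept Hox gene against its paralog number along the body axis, in control cords (filled circles, 4 injured minus 3 uninjured) and in labelled-knockout cords (open triangles, 4 injured minus 3 uninjured), on the log2(FPKM + 1) scale. Genes of paralogs 10 and up lie below 0 in both, further than the genes of lower paralog number apart from Hoxd9.

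The only other gene called lower with all 7 libraries was Hsd11b1 (ENSMUSG00000016194, chromosome 1, 192903942 to 192946383 of mm39), whose enzyme reactivates glucocorticoids inside cells. It stood at 3.70, 2.85, 3.01 and 2.08 FPKM in SCI cords, against 8.65, 8.47 and 8.14 FPKM in uninjured cords. The uninjured cords were alike to within 1 FPKM, and each injured cord was below them (-1.28 ± 0.21 SE, adjusted p = 0.0401). Of 18 glucocorticoid response genes it was the only one called with all 7 libraries. With the replicate block 1 was called higher and 1 lower, and without the 3 libraries 5 were higher and 4 lower. Among all genes the shares were 5.32% and 1.47% with the block, and 12.2% and 11.7% without the 3. Tsc22d3, a gene the hormone turns on, stood at 20.1, 25.1, 25.7 and 14.3 FPKM in SCI cords, against 25.4, 40.7 and 39.6 FPKM in uninjured cords (-0.70 ± 0.29 SE, adjusted p = 0.500, 0.0132 without the 3).

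Outside the lists, genes with the smallest p when library kind was a term were, on the rising side, in part genes of leukocytes. Apobec1, an RNA-editing deaminase, stood at 12.7, 9.30, 10.6 and 12.3 FPKM in SCI cords, against 1.44, 0.880 and 0.727 FPKM in uninjured cords (2.60 ± 0.22 SE, adjusted p = 0.00420). Myo1f, a myosin of leukocytes, stood at 5.48 to 7.45 FPKM in SCI cords, against 0.317 to 0.751 FPKM in uninjured cords, Nckap1l, an actin regulator of blood cells, at 8.93 to 10.4 FPKM in SCI cords, against 1.68 to 1.89 FPKM in uninjured cords. Anpep, a surface aminopeptidase, stood at 5.35 to 8.04 FPKM in SCI cords, against 0.241 to 0.760 FPKM in uninjured cords. Ifi30, a lysosomal thiol reductase, rose by 2.79 ± 0.37 and Ly86, a partner of toll-like receptors, by 2.68 ± 0.44 (SE). Klk8, a secreted protease of neural tissue, stood at 4.81, 8.36, 7.36 and 5.43 FPKM in SCI cords, against 0, 0.756 and 0.255 FPKM in uninjured cords (2.50 ± 0.28 SE). A2m, a broad protease inhibitor, stood at 34.3 to 46.9 FPKM in SCI cords, against 7.19 to 11.02 FPKM in uninjured cords (2.01 ± 0.23 SE). Pld4, an exonuclease of endosomes, and Hcls1, a cortactin-like protein of blood cells, were called with kind as a term and not without it (2.07 ± 0.44 and 1.52 ± 0.40 SE with all 7, adjusted p = 0.0927 and 0.182). On the falling side Gabra5, a GABA receptor subunit, stood at 19.0, 10.01, 10.2 and 17.9 FPKM in SCI cords, against 41.6, 19.5 and 20.1 FPKM in uninjured cords. It was lower in injured cords within each kind of library, with an adjusted p of 0.00199 when kind was a term and 0.544 when it was not (limma). Slitrk1, a synaptic adhesion protein, stood at 8.61, 7.47, 6.97 and 8.31 FPKM in SCI cords, against 17.4, 13.2 and 14.5 FPKM in uninjured cords. Kcnab1, a potassium channel subunit, stood at 10.1, 6.86, 6.40 and 8.57 FPKM in SCI cords, against 21.0, 12.4 and 13.7 FPKM in uninjured cords. The groups did not overlap in these 3 genes. Olfm3, Vstm2a, Cdkl1, Hecw1, Eif5a2, Zfp612 and Dcun1d4 completed the 10, with log2 changes of -0.89, -0.70, -0.81, -0.81, -0.86, -0.75 and -0.67 over all 7 libraries.

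The same comparison in cords labelled AstroCSF1KO, 4 with SCI against 3 uninjured, uses other libraries, in which genes with exactly 1 read were 9.66 to 11.5% of those detected. Of the 158 genes called in control cords, 157 were called there in the same direction, where 19.7% of genes were called higher and 26.1% lower. With upper-quartile scaling 3591 genes were called higher and 3036 lower there, against 2991 and 3952 as deposited. Gpnmb changed by 6.45 ± 0.35 there, Lyz2 by 6.27 ± 0.27, Serpina3n by 3.76 ± 0.12, Hsd11b1 by -1.19 ± 0.13 and Hoxd10 by -3.14 ± 0.26 (SE). Across the 15155 genes the changes of the 2 genotypes, which share no libraries, had a Pearson r of 0.874, a description over genes. The difference between them was tested as an interaction over all 14 libraries. It called 0 genes (limma), with 91 of 15155 at an unadjusted p under 0.05, and 0 by voom, with 72. Without the 3 control libraries it also called 0, with 2158 at an unadjusted p under 0.05, and with library kind as a term 0, with 1545. This does not show that the responses were alike, since the spread between control libraries enters the test. Sprr1a and Atf3 had interaction terms (labelled knockout minus control) of 0.98 ± 0.37 and 0.52 ± 0.19 (SE), and Glra1 of 0.60 ± 0.65 (SE), none of them called.

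**Figure D5:**
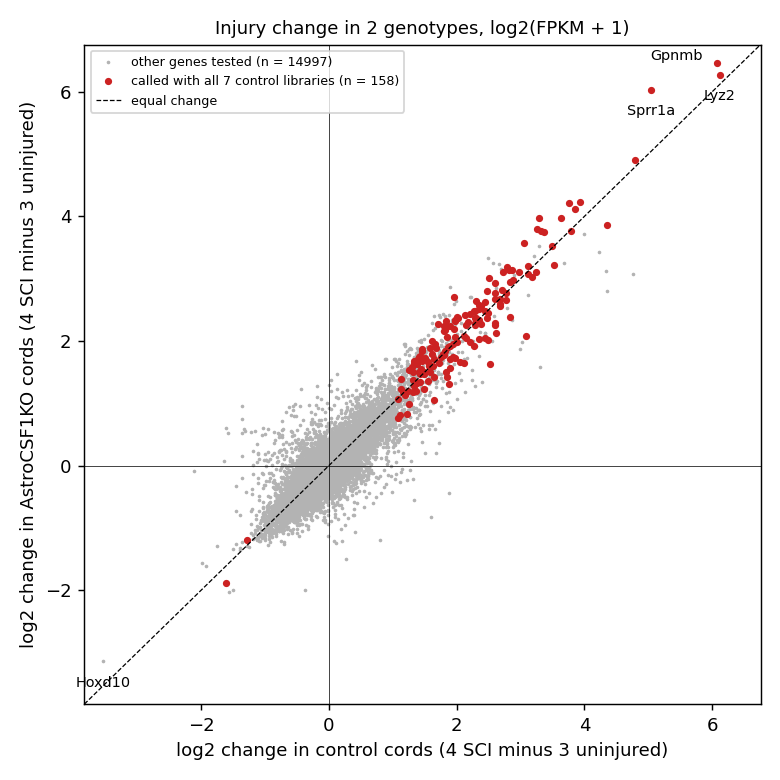
Log2 change with injury on the log2(FPKM + 1) scale in labelled-knockout cords (y axis, 4 injured minus 3 uninjured) against control cords (x axis, 4 injured minus 3 uninjured) for the other genes of the 15155 (grey) and the 158 called in control cords (red). The red points lie along the line of equal change, and 157 of them were called in the same direction in labelled-knockout cords.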

How the data were processed

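Poly(A) RNA of 14 spinal cord libraries was sequenced with paired ends and no strand, per the labels' protocols; 7 are control cords. The submitters' processing notes name CASAVA 1.8, HISAT2 and the build mm39. The authors deposited 1 table of FPKM per gene and library; the counting tool is not given in the sources used here. FPKM times gene length gave whole reads for 100% of values (tolerance 0.01), with 13263610 to 21969581 reads per library.

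Genes with at least 1 FPKM in at least 3 of the 14 libraries (15155) were fitted on log2(FPKM + 1) with limma 3.58.1 (R 4.3.3) and an intensity trend, 4 injured against 3 uninjured control libraries without a block; p-values were adjusted over all genes tested by Benjamini-Hochberg, and called means an adjusted p under 0.05. The pseudocount of 1 understates changes of low genes. The knockout fit and the interaction used the same steps. The count test on the recovered reads (voom), an alternative, called 175 genes. The fits were tested on simulated data.

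Same-numbered injured and uninjured libraries deviated together (Pearson r of 0.616, 0.832 and 0.733 across genes), so numbers 1 to 3 were taken to pair them and the blocked value stands beside results it changes. The pairing is not specific to number: SCI 4 with uninjured 1 gave 0.831, SCI 3 with uninjured 2 gave 0.812 and SCI 2 with uninjured 3 gave 0.708. Correlations were positive within each kind of library and negative between kinds. Control SCI replicate 4 has no partner, so the blocked changes are those of a comparison that leaves it out. Sex was read from Xist and Ddx3y.

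The libraries and gene lists were chosen with earlier results of these data known. Genes were named by rule: the 15 largest rises and 10 largest falls called without overlap, up to 4 called members of each list with the smallest p (with fewer than 2, up to 3 of highest mean), Hox genes averaging at least 1 FPKM, and the 10 of smallest p in each direction outside the lists with library kind as a term. Alternatives were pseudocount, filter, scaling, variance model, tool, library sets, weights, sex, block and leaving out each library. Promoters are from RefSeq on GRCm38.p6, used for letters only. Some genes that the rule names are not reported here.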

Additional observations from a re-analysis of the deposited data

Results flagged for a closer look

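In 4 genes 1 of the 4 injured control cords lay far from the other 3, by a test that chance meets in about 1 in 20 groups. The test was run on all the named genes except Xist and Ddx3y, so some would be flagged by chance alone. Cxcr4 reached 14.2 FPKM in control SCI replicate 4, Cybb 6.60 FPKM and Havcr2 8.23 FPKM in the same library. Hoxd10 had 2.60 FPKM in control SCI replicate 1 and 0 in the other 3 injured cords. Both libraries are among those that stand apart.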

How the results depend on the processing

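The count of genes called in control cords, 158 (156 higher, 2 lower), was 3624 (1850 higher, 1774 lower) without the 3 libraries that stand apart, 2125 (1270 higher, 855 lower) with library kind as a term, 1030 (807 higher, 223 lower) with the replicate block, 1073 (789 higher, 284 lower) in the fit of all 14 libraries and 4989 (2606 higher, 2383 lower) with library weights. It was 66 (66 higher, 0 lower) with sex as a term, 63 (60 higher, 3 lower) with no filter on low values (36121 genes tested), 94 (94 higher, 0 lower) with at least 5 FPKM (8983 tested) and 0 within the 3 libraries (limma, 1075 at an unadjusted p under 0.05), where 1 uninjured library is assumed to vary like the injured ones. Calls lower were 4 with a pseudocount of 0.1 and 4 by voom. With library kind and sex both as terms, chosen after seeing the data, it was 1717 (1135 higher, 582 lower). Leaving out 1 library gave 15 to 125 calls, 15 to 125 higher and 0 to 2 lower. The 158 kept their direction in every setting that tested them, though these settings reuse the libraries that chose them. The cause of the moved counts was not tested. Voom placed the median of all genes at 0.06 and the deposited values at -0.05 on the log2 scale. The replicate block moved no labelled-knockout count past 1.5 times, and the interaction called 0 genes in every setting, that with library kind as a term, chosen after seeing the data, included.

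Of the values of named genes under the alternatives, 2238 kept direction and call, 407 lost the call, 239 gained it and 41 changed sign, the last in genes not called with all 7 libraries. Of list medians 1541 moved by less than the spread between libraries and 158 by more. Log2 changes that changed sign were as follows. Cldn5 (0.39 with all 7): -0.14 to 1.07 leaving out 1 library. Ddx3y (1.33 with all 7): -2.83 (within the 3 libraries that stand apart), -0.57 (sex as a term), -0.66 (library kind and sex as terms). Fth1 (0.24 with all 7): -0.054 (within the 3 libraries that stand apart). Hoxc8 (0.08 with all 7): -0.019 (replicate block), -0.078 (without the 3 libraries that stand apart), -0.059 (limma arrayWeights), -0.10 to 0.20 leaving out 1 library. Hoxc9 (0.02 with all 7): -0.11 (within the 3 libraries that stand apart), -0.15 to 0.29 leaving out 1 library. Ighm (0.07 with all 7): -0.17 to 0.24 leaving out 1 library. Mbp (-0.29 with all 7): 0.15 (replicate block), 0.068 (without the 3 libraries that stand apart), 0.045 (library kind as a term), 0.00941 (within the 3 libraries that stand apart), 0.029 (limma arrayWeights), -0.95 to 0.15 leaving out 1 library. Penk (0.49 with all 7): -0.16 (within the 3 libraries that stand apart). Rtn4 (0.07 with all 7): -0.11 (replicate block), -0.026 (without the 3 libraries that stand apart), -0.046 (library kind as a term), -0.076 (within the 3 libraries that stand apart), -0.022 (limma arrayWeights), -0.11 to 0.30 leaving out 1 library. S100a9 (0.36 with all 7): -0.76 (within the 3 libraries that stand apart). S100b (0.05 with all 7): -0.088 (within the 3 libraries that stand apart), -0.00796 to 0.11 leaving out 1 library. Sst (-0.31 with all 7): 0.16 (without the 3 libraries that stand apart), 0.37 (limma arrayWeights), -0.59 to 0.032 leaving out 1 library. Depth limits genes of low FPKM, whose values rest on few reads.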
